A study of Drosophila melanogaster with 8 samples.

Results

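Most Dll peaks in leg discs lie on or beside an Sp1 peak, and 1709 of them do not: they lie more than 5000 bp from every called Sp1 peak. These far Dll peaks were chosen from the 12319 peaks of the Dll list by position alone. A member is a Dll peak on arm 2L, 2R, 3L, 3R or X whose nearest Sp1 peak on that arm begins or ends more than 5000 bp from its own edge. Dll peaks on chromosome 4 and on the Het and U sequences were left out, which leaves 11744 Dll and 9679 Sp1 peaks on the 5 arms. The far peaks make up 14.6% of the Dll peaks on these arms (95% Wilson interval 13.9% to 15.2%, counting error only). The values that chose them are the peak calls of both factors, so their positions relative to Sp1 are a description, and their scores and lengths, which come from the same calls, are given with no test.

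Dll (Distal-less) is a homeodomain transcription factor that marks the distal part of the fly appendages and is needed for the distal leg. Sp1 is a zinc finger factor of the Sp family, which binds GC-rich and GT-rich sites and works with *Dll* in the growth and patterning of the leg. Imaginal discs are the larval epithelial sacs from which adult appendages form, and chromatin immunoprecipitation followed by sequencing (ChIP-seq) recovers the DNA to which a protein is crosslinked, directly or through other proteins.

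The study mapped both factors in leg discs of wandering L3 larvae of *Drosophila melanogaster*. Dll was precipitated with an antibody to Dll from *yw* larvae, as 3 ChIP libraries with 1 input library, and Sp1 with an antibody to GFP from larvae of the genotype Sp1-GFP (BAC), again as 3 ChIP libraries with 1 input. Each pool held 100 larvae, of which all 6 leg discs were used, and the tagged Sp1 came from a BAC transgene at a fixed landing site. The leg disc holds distal and proximal cells, so a peak is a mean over cells with and without each factor. The factors thus differ in genotype, antibody and pool, and these cannot be told apart in any difference between the lists. Peaks were called by the authors on merged reads, which leaves 1 list per factor, no spread between replicates and no test across samples. Read numbers are not given per peak, and the sequencing depth behind a call is unknown.

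The score of a peak is the −log10 q that the authors' peak caller gave it for ChIP against input, where a larger value means that the enrichment is less likely by chance. Both lists begin at 4. A Dll peak is thus far only from Sp1 peaks that passed this threshold, and weaker Sp1 binding beside it cannot be seen. The Sp1 threshold sets the number of far peaks: when Sp1 peaks under a score of 6 were dropped, 3352 Dll peaks were far from the rest, and when those under 10 were dropped, 6544 were. The Dll threshold worked the other way, with 806 far peaks at a Dll score of 6 or more and 288 at 10 or more.

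The distance from a Dll peak to Sp1 had no break at 5000 bp. On the 5 arms, 5227 Dll peaks overlapped an Sp1 peak and 4808 lay 1 to 5000 bp away without sharing any, of which 970 lay more than 2000 bp away. The count then fell to 734 from the threshold to 10000 bp, 529 up to 20000 bp, 359 up to 50000 bp and 87 beyond. The median far peak lay 11446 bp from Sp1, with quartiles at 7416 and 20802 bp. Just inside the threshold were a peak on X from 17648838 to 17649207 with a score of 10.76, at 5002 bp, a peak on 3R from 4182805 to 4183260 with 6.5, also at 5002 bp, and a peak on 2L from 18522824 to 18523156 with 10.76, at 5016 bp. Just outside it were peaks on 3R with scores of 7.18 and 4.31, both at 4998 bp, and a peak on 2R with 4.64, at 4996 bp.

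**Figure D1:**
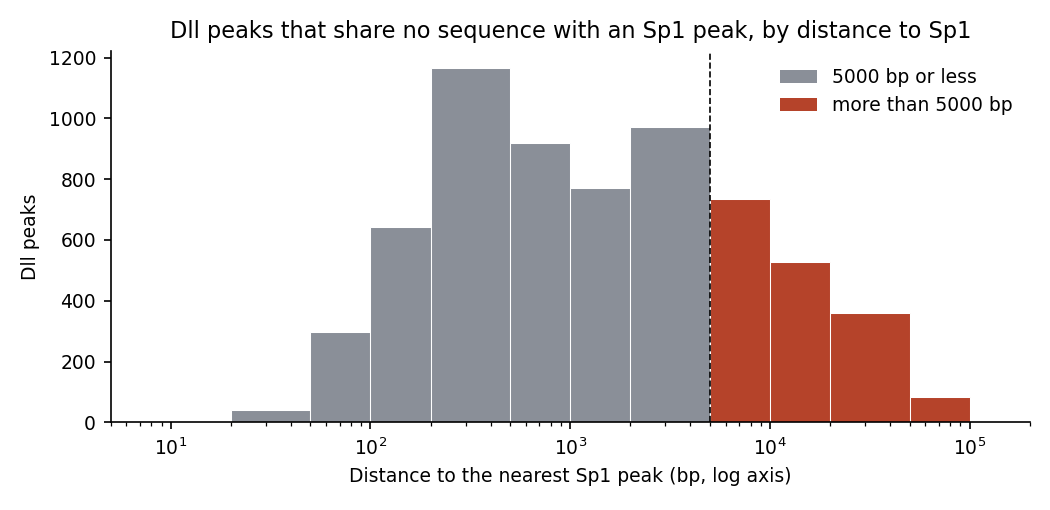
Number of Dll peaks (vertical axis) by distance to the nearest Sp1 peak in bp (log axis), for Dll peaks that share no sequence with Sp1. The bars to the right of the dashed line at 5000 bp are the far peaks, which fall from 734 in the nearest bar to 2 in the last, and bars differ in width.

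In median score, far peaks were like the other Dll peaks that share no sequence with Sp1. Their median −log10 q was 5.98, with quartiles at 4.92 and 8.46 and a range from 4 to 47.19. Dll peaks 1 to 5000 bp from Sp1 had a median of 5.96, with quartiles at 4.90 and 7.91. Dll peaks that share sequence with Sp1 stood apart from both, with a median of 10.06 and quartiles at 6.5 and 15.50. As a percentile rank within the Dll peaks of the 5 arms, the median far peak was at 38.0, against 36.5 for the peaks 1 to 5000 bp away and 69.8 for the overlapping peaks. Set against all other Dll peaks, at a median rank of 52.7, the difference in median rank was −14.7 points. Set only against those that share no sequence with Sp1 (a comparison added after the values were seen), it was 1.49 points, with an interval for counting error in the far median that spans 0 (−0.99 to 1.49), and it stands for median scores of 5.98 and 5.96. Many scores are tied, and 103 far peaks have 4.43.

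Among the far peaks themselves, the median score was nearly the same at all distances. It was 5.93 up to 10000 bp and 5.98 in each of the 3 classes beyond. Weak calls were frequent: 903 far peaks (52.8%, Wilson interval 50.5% to 55.2%) had a score under 6, and 288 (16.9%, 15.2% to 18.7%) had 10 or more. Of all 11744 Dll peaks on the 5 arms, 4626 had a score under 6 and 3579 had 10 or more. The share with 10 or more was 13.6% (12.7% to 14.6%) in peaks 1 to 5000 bp from Sp1 and 50.4% (49.1% to 51.8%) in overlapping peaks. Far peaks were therefore a larger part of the weak end of the Dll list than of the strong end. They took 20.8% (18.8% to 23.0%) of the lowest decile by score and 5.20% (4.07% to 6.62%) of the highest, and 3 of the 117 peaks in the top 1%. This fall was not particular to far peaks. Of the 2739 Dll peaks with a score under 5, 1583 lay 1 to 5000 bp from Sp1 and 547 were far. Of the 767 with 20 or more, 51 lay 1 to 5000 bp from Sp1 and 33 were far.

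Far peaks were also short, with a median length of 234 bp and quartiles at 139 and 387 bp. The median was 209 bp in peaks 1 to 5000 bp from Sp1 and 470 bp in overlapping peaks. Longer Dll peaks scored higher, with a Spearman correlation across peaks of 0.50 in the 1709 far peaks and 0.62 in the 5227 overlapping ones, where peaks are not independent replicates. At a like score, far peaks remained close to the non-overlapping peaks: between 10 and 15, the median length was 424.5 bp for 208 far peaks, 392 bp for 491 peaks 1 to 5000 bp away and 560 bp for 1268 overlapping peaks. In each of the 7 score bands compared, the far median lay above that of the peaks 1 to 5000 bp away and below that of the overlapping peaks. Distances run from peak edges, so that length enters the rule too.

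**Figure D2:**
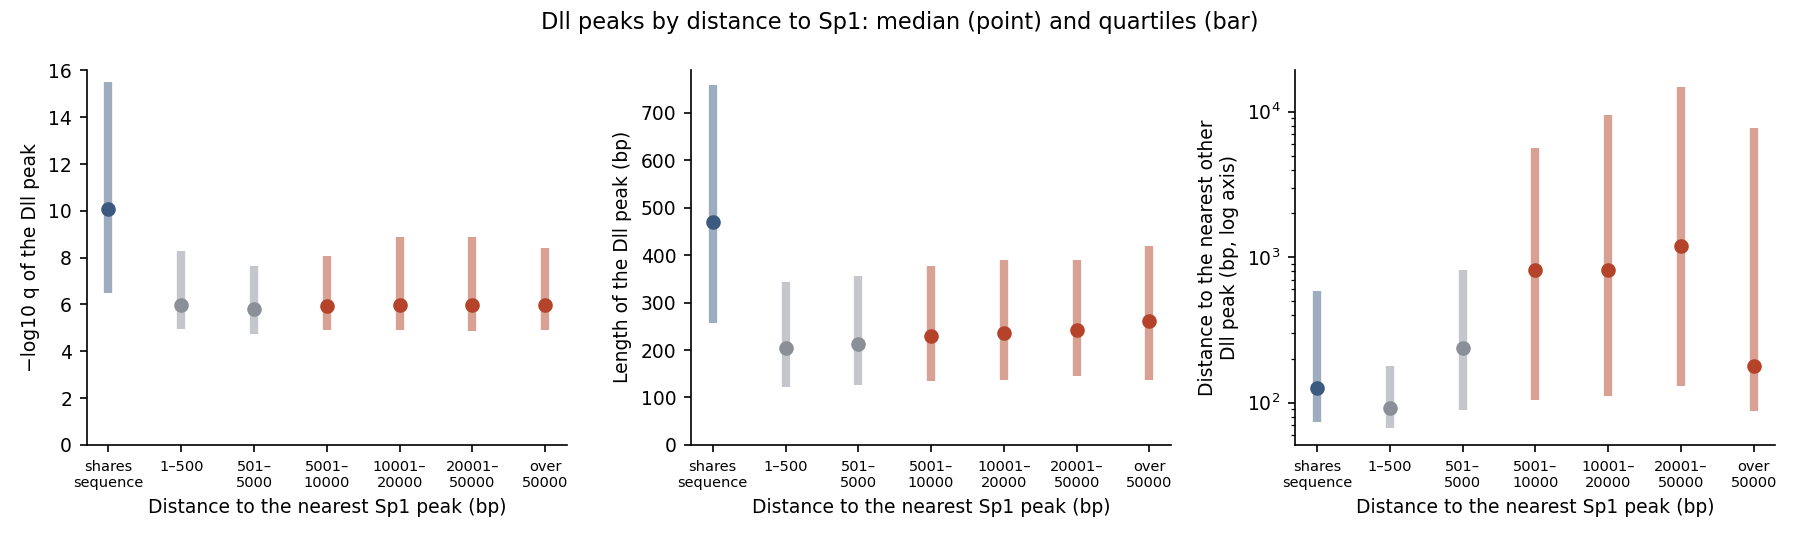
Score (−log10 q), length (bp) and distance to the nearest other Dll peak (bp, log axis) of Dll peaks, by distance to the nearest Sp1 peak, with the median as a point and the quartiles as a bar. Overlapping peaks (blue) have a median score of 10.06 and a median length of 470 bp, while all 4 classes of far peaks (red) have median scores of 5.93 or 5.98, and the far peaks have a median distance of 811 bp to the nearest other Dll peak.

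Far peaks were more thinly placed than the other Dll peaks. The nearest other Dll peak was a median of 811 bp away, with quartiles at 106 and 6709 bp, against 131 bp for peaks 1 to 5000 bp from Sp1 and 125 bp for overlapping peaks. No other Dll peak lay within 5000 bp of 562 far peaks (32.9%, Wilson interval 30.7% to 35.1%), and 119 had none within 20000 bp. The share alone within 5000 bp was 3.04% (2.59% to 3.56%) in peaks 1 to 5000 bp from Sp1 and 11.0% (10.2% to 11.9%) in overlapping peaks. The rule bears on these contrasts, since far peaks can lie only in sequence far from Sp1. That sequence held 21.2 Dll peaks per Mb, against 262 in the rest. Far peaks that stood alone had a median score of 5.56, against 6.52 for the 799 with another Dll peak within 500 bp. The highest score of a lone far peak was 29.90.

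Another Dll peak lay within 1000 bp of 888 far peaks (52.0%, 49.6% to 54.3%). This share follows the thresholds, and was 40% among Dll peaks of a score of 6 or more and 20.8% among those of 10 or more. Dropping Dll peaks also drops possible neighbours, so these lower shares cannot show that the runs rest on weak calls. The share was 69.7% when only Sp1 peaks of 10 or more were kept, which changes the peaks that are far. For 348 far peaks the nearest other Dll peak was more than 500 and up to 5000 bp away, and for 1228 (71.9%) the nearest other Dll peak was itself far from Sp1. Joining far peaks within 500 bp of each other left 1239 separate sites, of which 925 were single peaks, 221 were pairs and 93 held 3 or more, up to 11. A count of far peaks is thus larger than a count of places.

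The sequence more than 5000 bp from any Sp1 peak spans 80.5 Mb, or 67.8% of the 118.8 Mb covered by the lists on the 5 arms. It held 21.2 Dll peaks per Mb, against 262 per Mb in the remaining sequence, a ratio of 0.0810. The Dll list is thus sparse, but not empty, in the larger part of the genome that has no Sp1 peak nearby. The reverse class, Sp1 peaks more than 5000 bp from any Dll peak, held 789 peaks, or 8.15% of Sp1 peaks on these arms (7.62% to 8.71%).

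The X chromosome had the largest share of far peaks among the 5 arms. There, 421 of 2080 Dll peaks were far (20.2%, Wilson interval 18.6% to 22.0%), against 1288 of 9664 on the 4 autosomal arms (13.3%, 12.7% to 14.0%). On single autosomal arms the share ran from 12.6% on 2R to 14.8% on 2L. X was not richer in Dll peaks, with 93.0 per Mb against 100.2 on the autosomal arms, and it had fewer Sp1 peaks, with 66.1 per Mb against 85.0. More of its sequence was far from Sp1 (72.5% of X against 66.7% of the autosomal arms). Within that far sequence, X held 26.0 Dll peaks per Mb against 20.0 on the autosomal arms. Far peaks on X were also more often in runs, with another Dll peak within 1000 bp for 63.7%, against 48.1% on the autosomal arms. Their median score of 5.98 and median length of 233 bp were close to the autosomal values of 5.96 and 237.5 bp.

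**Figure D3:**
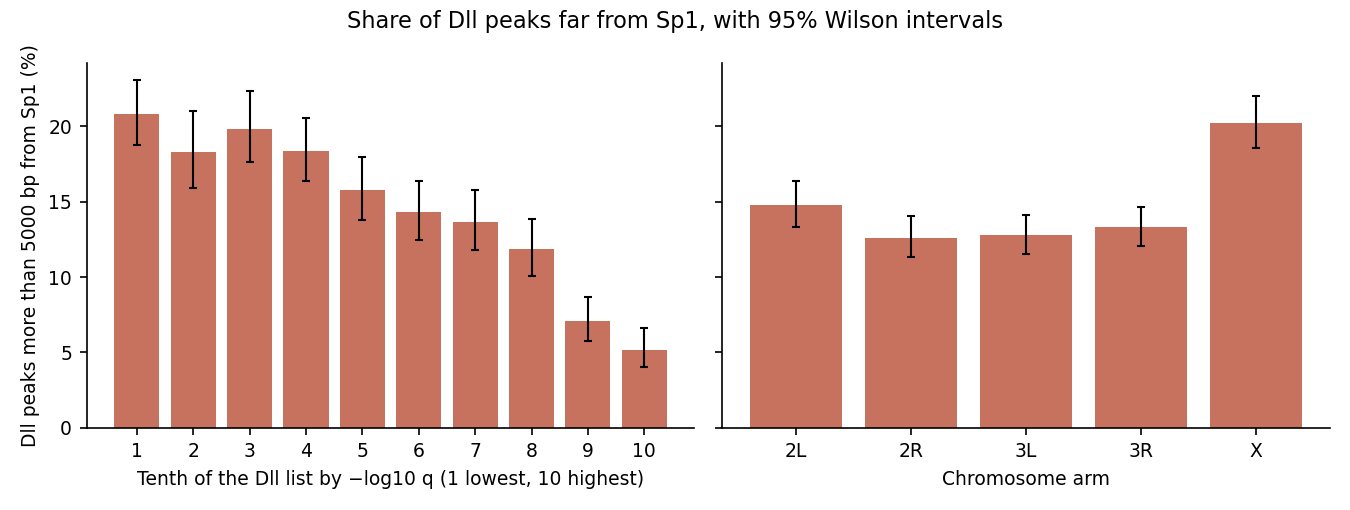
Share of Dll peaks that are far from Sp1, in percent with 95% Wilson intervals, for each decile of the Dll list by score (left) and for each chromosome arm (right). The share falls from 20.8% in the lowest decile to 5.20% in the highest, and X, at 20.2%, is above the autosomal arms, which lie between 12.6% and 14.8%.

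Far peaks were spread over the arms. Of 59 windows of 2 Mb that held at least 50 Dll peaks, all 59 held far peaks, with shares from 5.10% to 38.0% and a median of 13.8%. The lowest share was on 3L between 18 and 20 Mb, where 13 of 255 Dll peaks were far. The highest was near the base of X, between 20 and 22 Mb, where 27 of 71 were far (Wilson interval 27.6% to 49.7%), and the next was on X between 14 and 16 Mb, at 27.0%.

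Far peaks can also be read by the gaps between neighbouring Sp1 peaks. A gap must exceed 10000 bp to hold one, and 2465 gaps did. Of these, 1677 (68.0%) held no far peak, 378 held 1, 334 held 2 to 4 and 76 held 5 or more. The 76 richest gaps are 3.08% of the gaps and hold 483 far peaks, or 28.3% of all. They were also longer, with a median of 71.8 kb against 24.9 kb for all 2465 gaps. The remaining 4 far peaks lay outside the outermost Sp1 peaks of an arm. Longer gaps held a far peak more often, from 12.6% of gaps of 10 to 20 kb to 57.9% of those over 160 kb. Per Mb of far sequence, though, the density fell from 43.6 in gaps of 10 to 20 kb to 8.55 in those over 160 kb. Far peaks were therefore most dense in the shorter gaps, where Sp1 peaks are also closer.

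**Figure D4:**
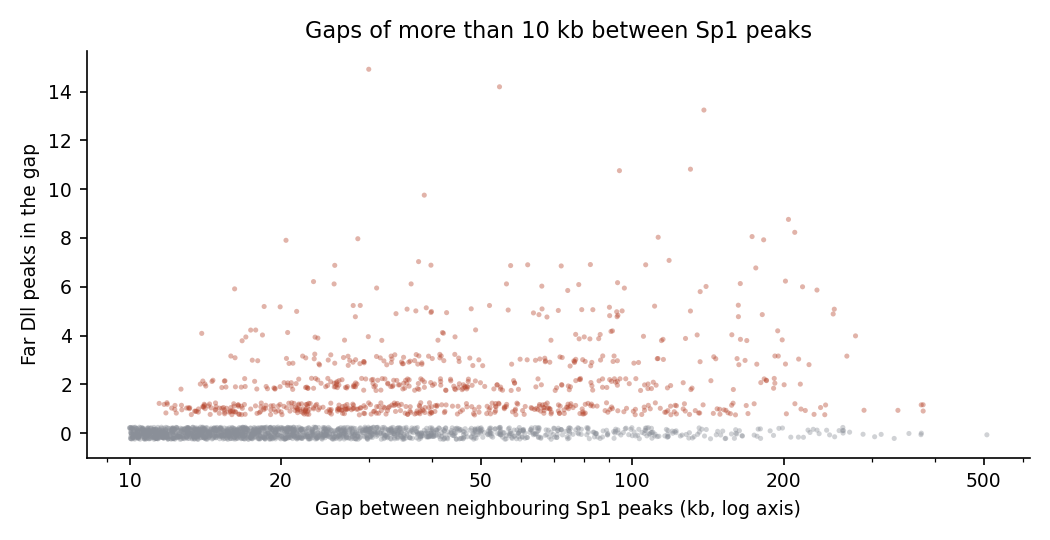
Number of far Dll peaks (vertical axis, spread slightly so that points can be told apart) in each of the 2465 gaps of more than 10 kb between neighbouring Sp1 peaks, by the length of the gap in kb (log axis). Grey points are the 1677 gaps with none, and the richest gap, with 15 far peaks, is 29.9 kb long.

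The gap with the most far peaks lies on X between Sp1 peaks that end at 8942392 and begin at 8972309. Its 15 far peaks fill only the stretch from 8956977 to 8965367. Their scores ran from 4.43 to 13.43 with a median of 7.09, and the highest was the peak from 8961058 to 8961340. Together they cover 3015 bp, so the run is made of short, moderate calls. The nearest other Dll peak in the gap lay on the right, from 8971160 to 8971396, within 5000 bp of Sp1.

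The next gap, also on X, runs from 16808230 to 16862680 and held 14 far peaks. Of these, 11 lie in a row from 16822557 to 16827566, with the highest score, 23.05, from 16826194 to 16826954 and the next, 18.45, from 16827144 to 16827415. The row begins with a weaker but longer peak of 1213 bp, with a score of 6.45. The other 3 far peaks, from 16837403 to 16839444, had scores of at most 5.44.

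On 3L, the gap of 138.9 kb from 4403655 to 4542530 held 13 far peaks. They fall into separate places: a pair with 13.65 and 4.57 that goes on from 4 Dll peaks nearer to the left Sp1 peak, a group of 8 that includes the peak from 4490181 to 4491375 with a score of 25.36, a lone peak of 11.95 from 4508050 to 4508877, and a pair with 7.68 and 5.44 further right. The nearest Sp1 peak to the 25.36 peak was 51155 bp away.

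Some of the largest Sp1 gaps held next to nothing. The longest, 507.6 kb near the base of 3L, held no Dll peak, and the next in length, 379.1 kb on X and 379.0 kb on 2L, held 1 far peak each, with scores of 4.43 and 8.27.

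**Figure D5:**
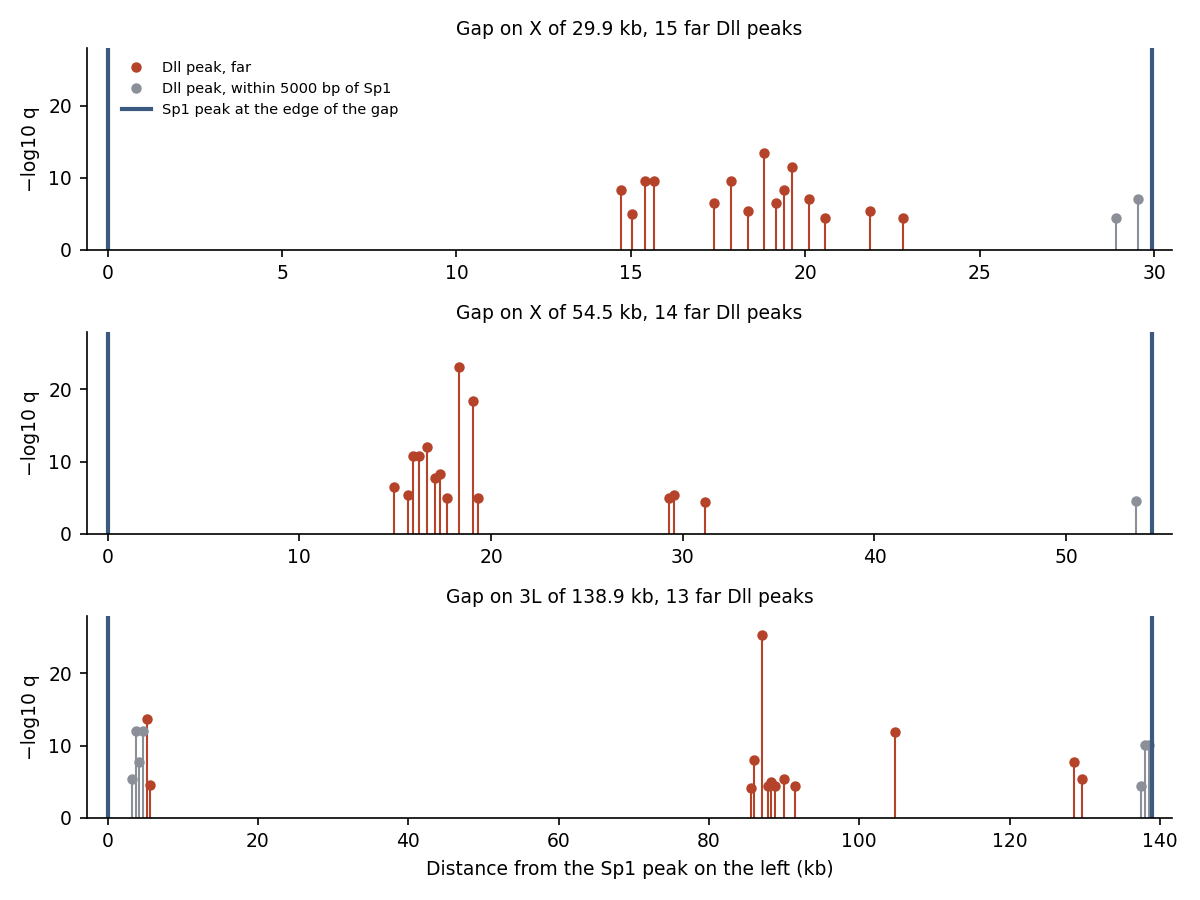
The 3 gaps between Sp1 peaks with the most far Dll peaks, on X (29.9 kb, 15 far peaks), X (54.5 kb, 14) and 3L (138.9 kb, 13). Each Dll peak stands at its distance from the Sp1 peak on the left (kb) with its −log10 q as height, red when far and grey when within 5000 bp of Sp1, and the blue lines are the Sp1 peaks that bound the gap.

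Strong Dll peaks far from Sp1 were few and lay on all 5 arms. A score of 20 or more was reached by 33 of the 1709 far peaks, which is 4.30% (Wilson interval 3.08% to 5.98%) of the 767 Dll peaks with that score, and 30 or more by 3 of 133. Such scores were also few among the 4808 peaks 1 to 5000 bp from Sp1, with 51, which is a smaller share of that class than 33 of 1709. The 5227 overlapping peaks held 683. To place them, the regions that the study listed were used as landmarks, each by the gene it is listed for. The study kept only regions bound by both factors, in accessible chromatin and with predicted sites for Dll, Sp1, Mad and Pan. A landmark is a neighbour on the map and is not thereby the target, and those more than 20000 bp away are named by a choice made after the values were seen. Where the gene order is given, it comes from a RefSeq gene table of Release 6, which was used for names and order only.

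The highest far peak lies on 3L from 8791005 to 8792775, with a score of 47.19. Of all Dll peaks on the 5 arms, only 5 scored higher. It is also the longest far peak, at 1770 bp. The nearest Sp1 peak was 21023 bp away, with a score of 5.25, and 2 smaller Dll peaks beside it, with scores of 11.08 and 7.68, belong to the same place. The nearest landmark was 22890 bp to the right and is listed for *dally*, which encodes a glypican that shapes the Wg and Dpp gradients. The landmark to the left, at 269262 bp, is listed for *foi*. Between *foi* and *dally* lie 40 protein coding genes, so the gene nearest to the peak is not known.

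On X, the peak from 19068548 to 19069701 had a score of 41.49 and lay 13946 bp from Sp1. It lies past the last landmark of that arm, which is listed for *RhoGAP18B* and was 20737 bp away. On 2L, the peak from 7071123 to 7071962 had 33.42, with 4 more Dll peaks within 5000 bp that reached up to 20.75, and lay 10392 bp from Sp1. Its landmarks were *milt*, 32403 bp to the left, and *wg*, the leg morphogen, 248923 bp to the right, with 19 protein coding genes wholly between them.

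The next in score was a lone peak, on 3R from 26395729 to 26397181, with 29.90 and a length of 1452 bp. Its nearest Sp1 peak, 6291 bp away, had a score of 5. Another lone peak, on 3R from 15006007 to 15006979, had 29.69 and lay 13932 bp from Sp1. The landmark to its left, at 16119 bp, is listed for *sqz*, a zinc finger factor gene, and that to its right, at 45159 bp, for *vib*. The genes wholly between *sqz* and *vib* are *CG14282*, *CG5555* and *myd*.

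On 2R, the highest far peak, from 14706569 to 14706817, had a score of 27.84 in only 248 bp and lay 12331 bp from an Sp1 peak with a score of 19.78. The last 4 of the 10 highest lay 18616 to 51155 bp from Sp1. They were a peak on 2L from 17449672 to 17450647 and a peak on X from 14069425 to 14069718, both with 26.48, the 3L peak with 25.36 described above, and a peak on 2L from 10032531 to 10033452 with 24.87. None of these 4 had a landmark within 20000 bp. Of the 10 highest far peaks, 8 had another Dll peak within 500 bp, so most were the top of a small run.

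The next longest far peaks also scored above the far median of 5.98, and ranked 92 and 32 by score among the 1709 far peaks. The peak on 3R from 892154 to 893757, of 1603 bp, had a score of 14.62, and the peak on 3R from 3816223 to 3817784, of 1561 bp, had 20.55. Near the 3816223 peak, a landmark listed for *CD98hc* lay 11532 bp away. The 892154 peak lies between landmarks listed for *CG2022* and *CG43131*, 40933 and 32573 bp away, and the gene wholly between them is *corto*, which encodes a chromatin factor that works with Polycomb and Trithorax proteins.

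The 3 peaks farthest from Sp1 were all on X. They lay 158.4, 104.4 and 96.8 kb from Sp1, with scores of 4.43, 9.50 and 6.44, and none had another Dll peak within 5000 bp.

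Landmarks could be used for a small part of the far peaks. Only 184 (10.8%) lay within 20000 bp of a landmark region, against 29.8% of Dll peaks 1 to 5000 bp from Sp1 and 34.3% of overlapping peaks. Landmark regions lie on Sp1 peaks by construction, so far peaks cannot be closer than 5000 bp to them, and the nearest was 5183 bp away. Of 338 landmark genes on the 5 arms, 106 (31.4%) had a far peak within 20000 bp.

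Among genes that pattern the leg from its base to its tip, 7 of 14 had a far peak within 20000 bp of a landmark (50.0%): *Dll*, *disco-r*, *bab2*, *ss*, *noc*, *drm* and *Antp*. These far peaks were mostly weak. At *Dll* itself, the peak from 20716552 to 20717060 on 2R had a score of 5.59 and lay 14061 bp from the landmark. At *noc*, which encodes a zinc finger factor, the peak from 14506673 to 14507448 on 2L had 11.42, the highest of these genes, and that from 14472144 to 14472519 had 10.59. At *ss*, which specifies tarsal and antennal fates, the peaks from 12235399 to 12235528 and from 12243855 to 12244215 on 3R had 5.09 and 4.88. At *bab2*, a gene of the tarsal segments, 2 peaks had 4.94 and 5.44.

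Among genes of Wg, Dpp and Hh signalling, 4 of 16 (25%) had a far peak as close, namely *wg*, *fz*, *fz3* and *dlp*. The peak near *fz*, a Wg receptor, from 14312529 to 14313131 on 3L, had 11.71 and lay 19238 bp from the landmark. That near *fz3*, from 652920 to 653898 on X, had 9.48 and lay 9646 bp from its landmark. The counts were 2 of 6 for Notch and EGFR signalling (*fng* and *spi*), 1 of 4 for Fat and Hippo signalling (*ds*) and 2 of 3 for the ecdysone response (*Eip74EF* and *Eip78C*). Near *ds*, which encodes a giant cadherin that binds Fat, the peak from 682163 to 682849 on 2L had a score of 16.92, the highest of any listed gene. This peak lay 18945 bp from the landmark. With so few genes in a list, these counts lie beside the 31.4% of all landmark genes as description only.

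The study's reporter and scan fragments could say little of far peaks: of the 67 on the 5 arms, 45 overlap an Sp1 peak and only 7 hold any sequence more than 5000 bp from one, and none held a far peak. Of the 22 fragments in the reporter set outside the scans, 8 had a far peak within 20000 bp. These were *Dll_LE1*, *noc_LE1*, *noc_LE2*, *disco_In2*, *spi_LE1*, *spi_LE2*, *ss_LE* and *Antp_In1*, and the closest far peak was 5468 bp from *ss_LE*. The study recorded no expression for *disco_In2* and *Antp_In1*, and expression for the others named here. The set also includes *zfh2_LE* on chromosome 4, which was left out of the far peaks. The fragments at *spi*, an EGFR ligand gene, had the same pair of far peaks nearby, with scores of 6.82 and 4.95. The weaker of these peaks lay 10362 bp from Sp1 and the stronger 5760 bp. Near *vn*, the other EGFR ligand gene active in the leg, 1 far peak, from 5794962 to 5795813 on 3L with a score of 8.95, lay 12202 bp from the nearest scan fragment. *vnE* and *rhoE* had no far peak within 20000 bp.

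Gene order could be added for some far peaks. For 60, the landmarks on either side lay within 100 kb in all and had at most 3 protein coding genes wholly between them in Release 6. Of these, 38 were within 20000 bp of a landmark and 22 were not. The 60 fall between the landmarks of 26 pairs of genes, with scores from 4 to 29.69 and a median of 6.03. Below, a peak placed between genes lies between their landmarks. No gene coordinates were used, so such a peak may lie inside a gene. This way of placing peaks, and the examples below, were chosen after the values were seen.

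The examples were picked for genes of known role, and the other pairs are not described, so that they show no theme. Between *noc* and *CG4218* on 2L were 6 of the far peaks, of which that at 14506673 was the highest and that from 14516292 to 14516380, with 9.16, the next. Between *disco-r* and *disco*, a pair of zinc finger genes of ventral appendages, were 4 on X, from 16059988 to 16061982, with scores of 4.43 to 7.09. Between *wg* and *Wnt6* were 2 on 2L, with 4.79 and 6.68. Between *E5* and *Art9* lies *ems*, a homeobox gene of the head that neighbours its paralog *E5*, and of the 3 far peaks there on 3R, the highest, from 9740868 to 9741488, had 9.57. The 2 far peaks between *ovo*, a zinc finger gene of the epidermis, and *CG32767* on X had 10.76 and 6.45, and the higher, from 4947388 to 4947579, lay 5248 bp from a strong Sp1 peak with a score of 16.45.

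Between *nmo*, which encodes the kinase Nemo, and *bip1* on 3L, 4 far peaks from 8037289 to 8038743 formed a run with scores of 5.44 to 13.43. Between *cv-c*, which encodes a RhoGAP, and *HtrA2* on 3R were 5, and the highest, from 10251140 to 10251718, had 14.27. Between *dnc*, the cAMP phosphodiesterase gene, and *CG12535* on X were 4, with the highest, 12.07, from 3266975 to 3267446. Between *CG15059* and *upd3*, a JAK/STAT ligand gene, were 2 on X, with 5.69 and 4.44. Between *Ptpmeg2* and *btd*, the *Sp1* paralog that shares its role in the leg, lies *nej*, which encodes the histone acetyltransferase CBP, and the far peak there, from 9560615 to 9560703 on X, had 7.68. No landmark of 1 gene stood on both sides of a strong far peak: the 4 far peaks so placed, at *jing*, *Eip74EF* and *CG43658*, had scores of at most 4.43.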

How the data were processed

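Reads were aligned by the authors to dm3 with BWA, and MACS2 (2.0.9 in the submitters' processing notes) was run on merged ChIP reads against input, at a p-value of 0.01. They deposited the peaks that passed a q-value of 0.0001, with the −log10 q value of each, and start and end coordinates, which are printed as given. Their methods name triplicate pools and also duplicates, so which libraries entered each list is not known. No reads were processed again.

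Distances are gaps between peak edges on the same arm, computed with Python 3.11.15, scipy 1.17.1, pandas 2.3.3 and numpy 2.4.6, and plotted with matplotlib 3.10.9. On 20 simulated lists, all 717 planted far peaks were recovered and no other peak was called far. These lists check the distance computation only and say nothing of the peak calls. Percentile ranks were taken within the 11744 Dll peaks of the 5 arms. No test was run, because rule, score and length come from the same calls. Wilson intervals treat peaks as independent and cover counting error only. The members, lists and classes were chosen with earlier results of these data known. Named peaks are the 10 highest, the highest on each arm, the 3 longest, the 3 farthest, the 3 nearest to the threshold on each side, and the 3 richest gaps. Landmarks are the study's 442 dm3 regions, with 339 gene names, of which 338 were found in the Release 6 table (no coordinates of that release were used). No dm3 genome or annotation was used here. Of the alternatives, 15 were planned and 1 was added after seeing the data.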

Additional observations from a re-analysis of the deposited data

Results flagged for a closer look

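Sequences that the comparisons above leave out also held Dll peaks more than 5000 bp from any Sp1 peak. On chromosome 4, 217 of 523 Dll peaks (41.5%) were that far from the 96 Sp1 peaks, with a median −log10 q of 7.09, the same as that of all Dll peaks there. On the Het and U sequences, 7 of 52 were. The cause was not tested.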

How the results depend on the processing

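No paired analysis was possible because each list rests on merged libraries and no replicate has values of its own, and for the same reason no replicate could be left out. Since depth is unknown, an absent Sp1 peak says only that no call passed the threshold. Of 120 values under alternatives, 60 stayed within the interval of the reported value (for counts, within 1.5 times), 59 moved and 1 had the other sign.

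The number and share of far peaks, the ratio of densities and the difference in rank follow the definitions. With far taken as more than 1000, 2000, 10000 and 20000 bp, the number was 3449, 2679, 975 and 446. The shares were 29.4%, 22.8%, 8.30% and 3.80%, and the rank differences were −21.6, −18.9, −12.6 and −12.6. The ratio of densities was 0.0482 at 1000 bp and 0.0607 at 2000 bp. With Dll peaks of a score of at least 6 or 10, the number was 806 or 288, the share 11.3% or 8.05% and the ratio 0.0607 or 0.0416, and the rank difference at 6 was −11.5. With Sp1 peaks of at least 6 or 10, the number was 3352 or 6544, the share 28.5% or 55.7%, the ratio 0.124 or 0.182 and the rank difference −13.3 in both. Joining Dll peaks within 500 bp gave a share of 19.8%, a ratio of 0.117 and a rank difference of −22.0. Without arm X, the share was 13.3% and the ratio 0.0768. Without arm 2L, 2R or 3L, the rank difference was −14.4, −14.4 or −14.0. These small shifts count as moved because the interval of the reported value, −17.2 to −14.7, ends at that value itself. Set only against Dll peaks that share no sequence with Sp1, the rank difference was 1.49 (interval −0.99 to 1.49, which spans 0), since the overlapping peaks, which score highest, then drop out. The excess of far peaks on X, 6.91 percentage points, was above 0 under all alternatives that include X, but was 2.34 at more than 20000 bp and 11.4 with Sp1 peaks of at least 10. The share with another Dll peak within 1000 bp was 9.66% after Dll peaks within 500 bp were joined.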
